A study of Homo sapiens with 13 samples.

Results

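Immediate early genes were followed through 5 groups of human cells on the way from stem cells to germ cell-like cells. The members were EGR1, FOS, FOSB, JUN, JUNB, ARC, IER2 and ATF3, a set given by name with no limit on their values. Of these 8 genes, 7 stood among the 9706 genes of the deposited expression tables and FOS was not analysed here. Each member had a level in all 10 RNA libraries, 2 per group, given as log2(RPKM + 0.1). RPKM is the number of reads of a gene scaled to its length and to all mapped reads of the library.

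All groups came from WIS2, a human embryonic stem cell line. The d8 DZ+PGCLC and d4 DZ+PGCLC were DAZL-positive primordial germ cell-like cells (PGCLCs) sorted on day 8 or day 4 from cells with a DAZL-tdTomato reporter, a SOX17 induced by dexamethasone and a DMRT1 induced by doxycycline. They had received BMP2 (500 ng/ml), SCF (100 ng/ml), EGF (50 ng/ml), a ROCK inhibitor (10 µM) and dexamethasone for 1 day. They then received activin A (100 ng/ml), retinoic acid (20 µM), SCF, EGF, dexamethasone and doxycycline. For both groups the labels give 2 days of this second step, which with the 1 day before adds up to neither day 4 nor day 8. For its RT-qPCR of such cells the study describes SOX17 and DMRT1 as induced over 4 and 8 days, under both cytokine steps in turn. The length of the second step in these libraries, and so the treatment between day 4 and day 8, is uncertain. DM+PGCLC, from cells with NANOS3-tdTomato and DMRT1-Venus reporters and no induced factor, had the same 4 early components for 3 days and then activin A, retinoic acid, SCF and EGF for 6 days. Their titles name DMRT1 as the sort marker, and their descriptions name TNAP, an alkaline phosphatase of germ and stem cells, with NANOS3. N3+PGCLC were TNAP-positive and NANOS3-positive cells of the same line, taken from the BMP2 medium without a second step. The study places them at an earlier day of culture than DM+PGCLC, so these groups are not matched in time. The 4i ESC of that line were TNAP-positive stem cells grown on mouse feeder cells with LIF (20 ng/ml), bFGF (8 ng/ml) and TGFβ (1 ng/ml). Their medium also held inhibitors labelled for GSK3 (3 µM), ERK (1 µM), p38 (5 µM) and JNK (5 µM). The study's introduction names MEK in the place of ERK. Line, medium, days of culture, induced factors and sort differed together between most groups, so their parts in a difference cannot be told apart. The 2 libraries of a group are independent biological replicates by the study's methods.

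Immediate early genes are transcribed within minutes of a growth factor, neuronal or stress signal, without new protein being needed first. Their common inputs are the ERK, p38 and JNK kinases, which act through serum response factor with its ternary complex partners and through CREB, and their messages are short-lived. EGR1 encodes a zinc finger transcription factor, FOSB, JUN and JUNB encode subunits of the AP-1 dimer, ATF3 encodes a related leucine zipper factor induced by stress, IER2 encodes a nuclear protein of the immediate early response, and ARC encodes a capsid-forming protein best known at neuronal synapses. Inhibitors of the ERK pathway, p38 and JNK were part of the 4i medium and are not named for the other media. The contrasts with 4i ESC therefore set cells in media for which none is named against cells held with all of them.

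In GRCh38 with the GENCODE 44 annotation all 7 genes are protein-coding. EGR1 is at chr5:138465479-138469303 on the plus strand, FOSB at chr19:45467995-45475179 (plus), JUN at chr1:58776845-58784048 (minus), JUNB at chr19:12791486-12793315 (plus), IER2 at chr19:13150411-13154911 (plus) and ATF3 at chr1:212565334-212620777 (plus). JUN and JUNB have a single exon. The others have 2 (EGR1 and IER2) or 4 exons (FOSB and ATF3), and ARC is described with its levels.

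Upstream sequence from RefSeq (GRCh38.p14) was available for 6 of the 7 genes, with 7 start sites because ATF3 has 2. The 250 bases before each start were searched on both strands for 8 motifs: the CArG box bound by serum response factor, TGACGTCA and TGACATCA of the CREB, ATF and Jun type, TGANTCA of AP-1, GCGGGGGCG and GCGTGGGCG of the EGR family, TGATGNAA of C/EBP and ATF dimers, and the heat shock element of heat shock factor (GAA, TTC and GAA with NN between them). The first 4 do not overlap each other by their letters. The sequences with a match are shown. Each is written 5′ to 3′ on the gene's strand and stops before the annotated gene, with the matches in capitals.
EGR1, chr5:138465229-138465478, plus strand, CArG boxes in capitals: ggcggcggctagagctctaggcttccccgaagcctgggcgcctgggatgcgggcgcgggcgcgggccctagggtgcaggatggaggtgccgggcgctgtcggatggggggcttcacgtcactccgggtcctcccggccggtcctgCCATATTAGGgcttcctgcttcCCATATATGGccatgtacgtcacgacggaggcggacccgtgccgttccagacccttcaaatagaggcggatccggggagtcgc
JUN, chr1:58784049-58784297, minus strand, TGACATCA in capitals: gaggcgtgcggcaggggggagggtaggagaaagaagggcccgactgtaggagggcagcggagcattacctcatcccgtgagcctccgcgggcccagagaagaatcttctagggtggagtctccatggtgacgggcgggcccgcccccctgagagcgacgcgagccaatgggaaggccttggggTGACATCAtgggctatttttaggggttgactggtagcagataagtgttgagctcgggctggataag
ATF3, chr1:212565157-212565333, plus strand, TGATGGAA (a TGATGNAA match) and TGACATCA in capitals: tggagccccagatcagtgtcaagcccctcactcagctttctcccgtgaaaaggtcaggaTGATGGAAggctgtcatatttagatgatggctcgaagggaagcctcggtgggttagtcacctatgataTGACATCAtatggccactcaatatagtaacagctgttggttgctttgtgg
EGR1 alone among the 7 windows held CArG boxes, 2 of them, against 1.16% of 35116 RefSeq windows of the same length. TGACATCA was in the JUN window and the first ATF3 window, against 2.37% of all windows. TGATGNAA was in the first ATF3 window only, against 3.14%. The windows of FOSB, JUNB, IER2 and the second ATF3 start held none of the 8. Such matches describe the letters and say nothing of binding in these cells.

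The libraries carried the transcripts by which they were sorted or induced. DMRT1 stood at 12.42 and 12.24 in d8 DZ+PGCLC, 12.18 and 12.01 in d4 DZ+PGCLC, 6.35 and 6.38 in DM+PGCLC, 1.00 and 1.21 in N3+PGCLC, and 1.56 and 1.54 in 4i ESC, on the log2(RPKM + 0.1) scale. DAZL ranged from 1.27 to 3.51 in the DZ+PGCLC libraries and from -3.32 to -2.45 in all others. NANOS3 was at -1.49 or below in the 4 DZ+PGCLC libraries and between 3.25 and 5.79 in N3+PGCLC and DM+PGCLC. POU5F1 and NANOG were called lower in both DZ+PGCLC groups than in each of the other 3. SOX2, on the same list of 7 pluripotency genes, was called lower than in 4i ESC but higher than in N3+PGCLC and DM+PGCLC. LIN28A was not called against DM+PGCLC. Of 8 primordial germ cell markers, 3 rose in d4 DZ+PGCLC and 2 in d8 DZ+PGCLC against 4i ESC. TFAP2C, PDPN and KIT fell in both. Among all listed genes, 17.3% rose and 24.6% fell on day 4, and 28.5% and 27.4% on day 8. From 6533 to 7135 listed genes per library were at 1 RPKM or above. Relative depth, estimated from the steps between the lowest RPKM values, ran from 0.665 to 1.14 with 4i ESC replicate 1 as 1, while read totals are unknown.

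EGR1 was highest in d8 DZ+PGCLC and rose in 3 of the 4 PGCLC groups over 4i ESC. Its levels were 8.74 and 8.35 in d8 DZ+PGCLC, 6.60 and 6.37 in d4 DZ+PGCLC, 5.54 and 4.87 in DM+PGCLC, 6.65 and 6.63 in N3+PGCLC, and 4.91 and 3.45 in 4i ESC. The d8 DZ+PGCLC libraries stood above all others, and only DM+PGCLC overlapped 4i ESC. The difference from 4i ESC was 4.37 ± 0.445 (SE) in d8 DZ+PGCLC, or 20.6-fold (adjusted p = 0.000184, limma over all listed genes). It was 2.30 in d4 DZ+PGCLC (adjusted p = 0.00395) and 2.46 in N3+PGCLC (adjusted p = 0.00583). DM+PGCLC differed from 4i ESC by 1.02 with a 95% interval from -0.015 to 2.06 (adjusted p = 0.0859). That value passed the test without 4i ESC replicate 1 (1.75, adjusted p = 0.00738). Among the PGCLC groups, d8 DZ+PGCLC exceeded DM+PGCLC by 3.34 (adjusted p = 0.000475), d4 DZ+PGCLC by 2.06 (adjusted p = 0.0124) and N3+PGCLC by 1.90 (adjusted p = 0.00747). The call over d4 DZ+PGCLC was lost without d8 DZ+PGCLC replicate 1 (adjusted p = 0.0984), d8 DZ+PGCLC replicate 2 (0.0639) or d4 DZ+PGCLC replicate 2 (0.0592), and that over N3+PGCLC without d8 DZ+PGCLC replicate 1 (0.0666). DM+PGCLC was lower than N3+PGCLC by -1.44 (adjusted p = 0.0424) and d4 DZ+PGCLC higher than DM+PGCLC by 1.28 (adjusted p = 0.0421). Both calls were lost whichever of their 4 libraries was left out, with adjusted p from 0.0583 to 0.22 for DM+PGCLC against N3+PGCLC and from 0.0523 to 0.214 for d4 DZ+PGCLC against DM+PGCLC.

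**Figure D1:**
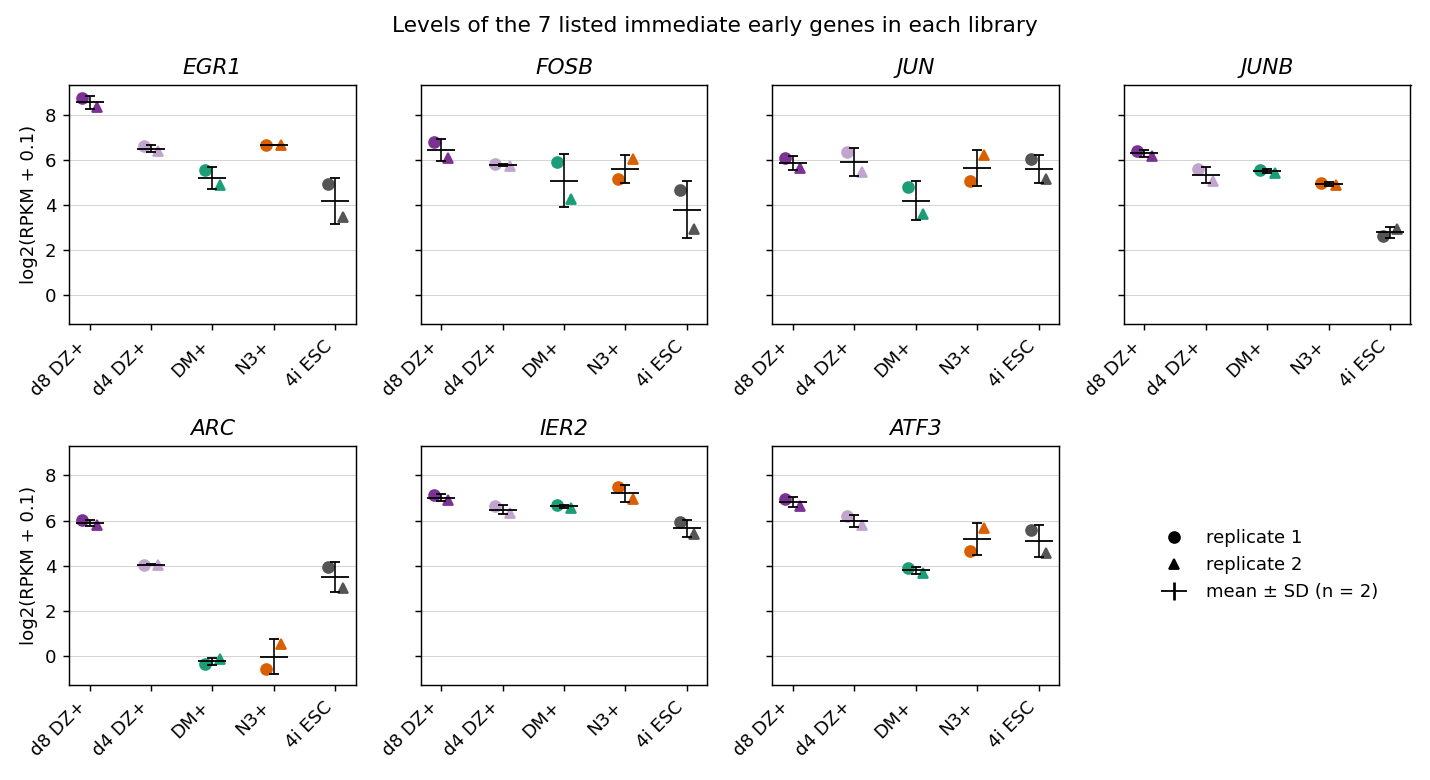
Levels of the 7 members on the y axis as log2(RPKM + 0.1), by group on the x axis. Circles are replicate 1, triangles replicate 2, and bars the mean ± SD (n = 2). EGR1, FOSB, JUNB, ARC and ATF3 have both d8 DZ+PGCLC libraries above every other library, and ARC lies below 1 in DM+PGCLC and N3+PGCLC. For FOSB the margin is narrow (6.074 against 6.049 in N3+PGCLC replicate 2). The share of all listed genes with d8 DZ+PGCLC so placed was not counted.

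FOSB, which encodes a Fos-family partner in AP-1, rose in both DZ+PGCLC groups over 4i ESC. It stood at 6.79 and 6.07 in d8 DZ+PGCLC, 5.80 and 5.73 in d4 DZ+PGCLC, 5.91 and 4.25 in DM+PGCLC, 5.16 and 6.05 in N3+PGCLC, and 4.68 and 2.92 in 4i ESC. The d8 DZ+PGCLC libraries lay just above those of the other PGCLC groups, which overlapped one another, and none of the 6 comparisons among PGCLC groups was called. Against 4i ESC the difference was 2.63 ± 0.698 (SE) in d8 DZ+PGCLC (6.19-fold, adjusted p = 0.012) and 1.97 in d4 DZ+PGCLC (adjusted p = 0.047). It was 1.81 in N3+PGCLC (adjusted p = 0.0833) and 1.28 in DM+PGCLC (adjusted p = 0.158), neither called. FOSB had the widest error of the 7 genes, and its calls turned on single libraries. The d8 DZ+PGCLC call was lost without 4i ESC replicate 2 (1.75, adjusted p = 0.0751) or d8 DZ+PGCLC replicate 1 (2.27, adjusted p = 0.0966). The d4 DZ+PGCLC call was lost without 4i ESC replicate 2 (1.09, adjusted p = 0.262), d4 DZ+PGCLC replicate 1 (adjusted p = 0.142) or d4 DZ+PGCLC replicate 2 (adjusted p = 0.137). Without 4i ESC replicate 1 the N3+PGCLC difference was 2.69 and passed (adjusted p = 0.0467), and without DM+PGCLC replicate 1 d8 DZ+PGCLC exceeded DM+PGCLC by 2.18 (adjusted p = 0.044).

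JUN, the founding AP-1 subunit, was the only listed member with no call here against 4i ESC in any group. JUN is listed because it passed the study's own test of DM+PGCLC against 4i ESC. Calls of JUN that use DM+PGCLC are thus not independent of the listing. Its levels were 6.06 and 5.64 in d8 DZ+PGCLC, 6.35 and 5.45 in d4 DZ+PGCLC, 4.79 and 3.60 in DM+PGCLC, 5.08 and 6.22 in N3+PGCLC, and 6.05 and 5.16 in 4i ESC. DM+PGCLC lay below the 4 other groups, which overlapped each other. JUN was higher than in DM+PGCLC by 1.66 ± 0.558 (SE) in d8 DZ+PGCLC (3.16-fold, adjusted p = 0.0313) and by 1.71 in d4 DZ+PGCLC (3.27-fold, adjusted p = 0.0335). The first call was lost without DM+PGCLC replicate 2 (1.06, adjusted p = 0.19), d8 DZ+PGCLC replicate 1 (0.165) or d8 DZ+PGCLC replicate 2 (0.0928), and the second without DM+PGCLC replicate 2 (1.11, adjusted p = 0.197) or d4 DZ+PGCLC replicate 1 (0.175). DM+PGCLC differed from 4i ESC by -1.41 (95% interval -2.71 to -0.106, adjusted p = 0.0647) and from N3+PGCLC by -1.45 (adjusted p = 0.0842). Without DM+PGCLC replicate 1 the difference from 4i ESC was -2.01 (adjusted p = 0.0388).

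JUNB, which encodes the Jun-family subunit with weaker transactivation, rose in all 4 PGCLC groups and had the narrowest error of the members. It was at 6.40 and 6.19 in d8 DZ+PGCLC, 5.58 and 5.06 in d4 DZ+PGCLC, 5.57 and 5.43 in DM+PGCLC, 4.99 and 4.86 in N3+PGCLC, and 2.62 and 2.95 in 4i ESC. All 8 PGCLC libraries lay above both 4i ESC libraries, with no overlap. The differences from 4i ESC were 3.51 ± 0.202 (SE) in d8 DZ+PGCLC (11.4-fold, adjusted p = 2.44e-05), 2.54 in d4 DZ+PGCLC (9.8e-05), 2.71 in DM+PGCLC (8.42e-05) and 2.14 in N3+PGCLC (0.000562). These 4 calls held under every alternative tried, and JUNB was also higher in d8 DZ+PGCLC than in N3+PGCLC (1.37, adjusted p = 0.000914). It exceeded d4 DZ+PGCLC by 0.97 (adjusted p = 0.0107) and DM+PGCLC by 0.80 (adjusted p = 0.00973), both under the 2-fold limit. The difference from d4 DZ+PGCLC was 1.23 without d4 DZ+PGCLC replicate 1 (adjusted p = 0.0115) and 1.08 without d8 DZ+PGCLC replicate 2 (adjusted p = 0.0469).

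ATF3 was highest in the DZ+PGCLC groups and lowest in DM+PGCLC. It stood at 6.97 and 6.65 in d8 DZ+PGCLC, 6.19 and 5.81 in d4 DZ+PGCLC, 3.91 and 3.68 in DM+PGCLC, 4.67 and 5.69 in N3+PGCLC, and 5.60 and 4.58 in 4i ESC. All 4 DZ+PGCLC libraries lay above the other 6, and both DM+PGCLC libraries below the other 8. ATF3 exceeded DM+PGCLC by 3.02 ± 0.413 (SE) in d8 DZ+PGCLC (8.1-fold, adjusted p = 0.00054) and by 2.20 in d4 DZ+PGCLC (adjusted p = 0.00303), and both calls held under every alternative. It also exceeded, in d8 DZ+PGCLC, 4i ESC by 1.72 (3.3-fold, adjusted p = 0.00777) and N3+PGCLC by 1.63 (adjusted p = 0.0105). Without d8 DZ+PGCLC replicate 1 these had adjusted p = 0.0659 and 0.0815, and without N3+PGCLC replicate 1 the second was 1.12 (adjusted p = 0.0624). DM+PGCLC was lower than 4i ESC by -1.30 (adjusted p = 0.0303) and lower than N3+PGCLC by -1.38 (adjusted p = 0.0373). The call against 4i ESC was lost without 4i ESC replicate 1 (-0.79, adjusted p = 0.179), DM+PGCLC replicate 1 (0.076) or DM+PGCLC replicate 2 (0.132), and that against N3+PGCLC without N3+PGCLC replicate 2 (-0.87, adjusted p = 0.191), DM+PGCLC replicate 1 (0.0929) or DM+PGCLC replicate 2 (0.165). The d4 DZ+PGCLC differences, 0.90 from 4i ESC and 0.82 from N3+PGCLC, were not called with all libraries but passed without 4i ESC replicate 1 (1.42, adjusted p = 0.0386) and without N3+PGCLC replicate 2 (1.33, adjusted p = 0.0434).

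IER2 was the member with the flattest profile and the only one whose highest mean was in N3+PGCLC. Its levels were 7.12 and 6.89 in d8 DZ+PGCLC, 6.63 and 6.34 in d4 DZ+PGCLC, 6.68 and 6.57 in DM+PGCLC, 7.47 and 6.93 in N3+PGCLC, and 5.92 and 5.39 in 4i ESC. All 8 PGCLC libraries were above both 4i ESC libraries. IER2 rose by 1.35 ± 0.245 (SE) in d8 DZ+PGCLC (2.55-fold, adjusted p = 0.00215) and by 1.55 in N3+PGCLC (2.93-fold, adjusted p = 0.00353) over 4i ESC. The DM+PGCLC difference of 0.97 (adjusted p = 0.012) and the d4 DZ+PGCLC difference of 0.83 (adjusted p = 0.0236) were under 2-fold. Without 4i ESC replicate 1 they were 1.24 (adjusted p = 0.0141) and 1.10 (adjusted p = 0.0206) and were called, and without DM+PGCLC replicate 2 the DM+PGCLC difference was 1.02 (adjusted p = 0.0475). No comparison among the PGCLC groups was called.

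ARC had the widest range of the 7 genes and the only profile in which the NANOS3-sorted groups fell below the stem cells by more than 10-fold. The gene lies at chr8:142611049-142614479 on the minus strand of GRCh38 and has 3 exons. It was at 6.00 and 5.80 in d8 DZ+PGCLC, 4.05 and 4.02 in d4 DZ+PGCLC, -0.33 and -0.12 in DM+PGCLC, -0.57 and 0.53 in N3+PGCLC, and 3.95 and 3.02 in 4i ESC. In RPKM these are 64.0 and 55.6, 16.5 and 16.2, 0.695 and 0.821, 0.572 and 1.34, and 15.4 and 8.03 in the same order of groups. DM+PGCLC and N3+PGCLC overlapped, and each of the other groups was apart from them and from one another. Against DM+PGCLC, ARC was higher by 6.13 ± 0.415 (SE) in d8 DZ+PGCLC (69.9-fold, adjusted p = 2.87e-05) and by 4.26 in d4 DZ+PGCLC (19.2-fold, adjusted p = 0.000129). Against N3+PGCLC it was higher by 5.92 (adjusted p = 4.89e-05) and 4.06 (adjusted p = 0.000233) in these groups. Against 4i ESC it rose by 2.41 in d8 DZ+PGCLC (5.33-fold, adjusted p = 0.00168), and it fell in DM+PGCLC (-3.71, adjusted p = 0.000371) and N3+PGCLC (-3.51, adjusted p = 0.00132). These folds are on the log2(RPKM + 0.1) scale, which understates changes of a gene at such low levels. The d4 DZ+PGCLC difference from 4i ESC was 0.55 with an interval from -0.422 to 1.52 (adjusted p = 0.305). Between the DZ+PGCLC groups, d8 exceeded d4 by 1.86 (adjusted p = 0.0138), a call lost whichever of the 4 libraries was left out (adjusted p from 0.0581 to 0.0986, values from 1.77 to 1.97).

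The 10 comparisons were read against the share of all 9706 listed genes that passed the same test, an adjusted p under 0.05 and a fold over 2. In d8 DZ+PGCLC against 4i ESC, 6 members rose and none fell, with JUN not called, while 28.5% of listed genes rose and 27.4% fell. The members' median difference was 2.41 and that of all genes 0.006. In d4 DZ+PGCLC against 4i ESC, 3 rose (EGR1, FOSB and JUNB), against 17.3% of genes higher and 24.6% lower, and 5 were called without 4i ESC replicate 1. In DM+PGCLC against 4i ESC, JUNB rose and ARC and ATF3 fell, against 23.0% and 21.1%. In N3+PGCLC against 4i ESC, EGR1, JUNB and IER2 rose and ARC fell, against 13.8% and 12.3%. Markers of other cell types also rose in N3+PGCLC over 4i ESC, namely all 5 listed endoderm genes, all 7 mesoderm and amnion genes and 4 of 7 fibroblast genes. The summed RPKM was 72.4 and 415 in N3+PGCLC, against 2.52 and 11.6 in 4i ESC, for endoderm, 105 and 362, against 6.45 and 14.4, for mesoderm and amnion, and 378 and 428, against 481 and 881, for fibroblasts, of which DCN was at 0 in 4i ESC. Their part in the members' differences was not tested. A gene entered the tables by passing a test of d8 DZ+PGCLC, DM+PGCLC or N3+PGCLC against 4i ESC on these libraries. These percentages are therefore of preselected genes, and those 3 comparisons are not independent of the listing. FOSB entered only through d8 DZ+PGCLC and JUN only through DM+PGCLC, so their other calls that use those libraries are not independent of it either. All 4 comparisons with 4i ESC share its same 2 libraries.

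Among the PGCLC groups the members' calls were mostly higher in the DZ+PGCLC. In d8 DZ+PGCLC against DM+PGCLC, 4 rose (EGR1, JUN, ARC and ATF3), against 28.1% of listed genes higher and 27.5% lower. In d4 DZ+PGCLC against DM+PGCLC the calls were for these 4 genes too, against 18.8% higher and 26.1% lower, and 2 were called without DM+PGCLC replicate 2 or d4 DZ+PGCLC replicate 1. EGR1, JUNB, ARC and ATF3 rose in d8 DZ+PGCLC against N3+PGCLC, against 25.5% and 25.6%, and 2 were called without d8 DZ+PGCLC replicate 1. In d4 DZ+PGCLC against N3+PGCLC only ARC was called, higher, against 15.5% and 24.1%, with 2 called without N3+PGCLC replicate 2. In d8 DZ+PGCLC against d4 DZ+PGCLC, EGR1 and ARC rose, against 15.4% and 8.30% (1493 and 806 genes, but 825 and 774 among genes with a mean level of at least 0). Here 0 members were called without d4 DZ+PGCLC replicate 2 or d8 DZ+PGCLC replicate 1 and 1 without d8 DZ+PGCLC replicate 2. In DM+PGCLC against N3+PGCLC, EGR1 and ATF3 fell and none rose, against 13.9% higher and 12.1% lower, with 1 called without N3+PGCLC replicate 1 and 0 without any other of the 4 libraries. Setting each library's median to a common value moved the differences of d8 DZ+PGCLC and d4 DZ+PGCLC from the other 3 groups up by 0.179 to 0.335. It turned the split of all called genes in d4 DZ+PGCLC from 1683 higher and 2391 lower into 2328 and 1861 against 4i ESC, from 1507 and 2339 into 2199 and 1914 against N3+PGCLC, and from 1829 and 2535 into 2424 and 2193 against DM+PGCLC. No call of a member was lost with that centring. In bulk RNA, a change in the share of cells that express a gene and a change in RNA per cell cannot be told apart.

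**Figure D2:**
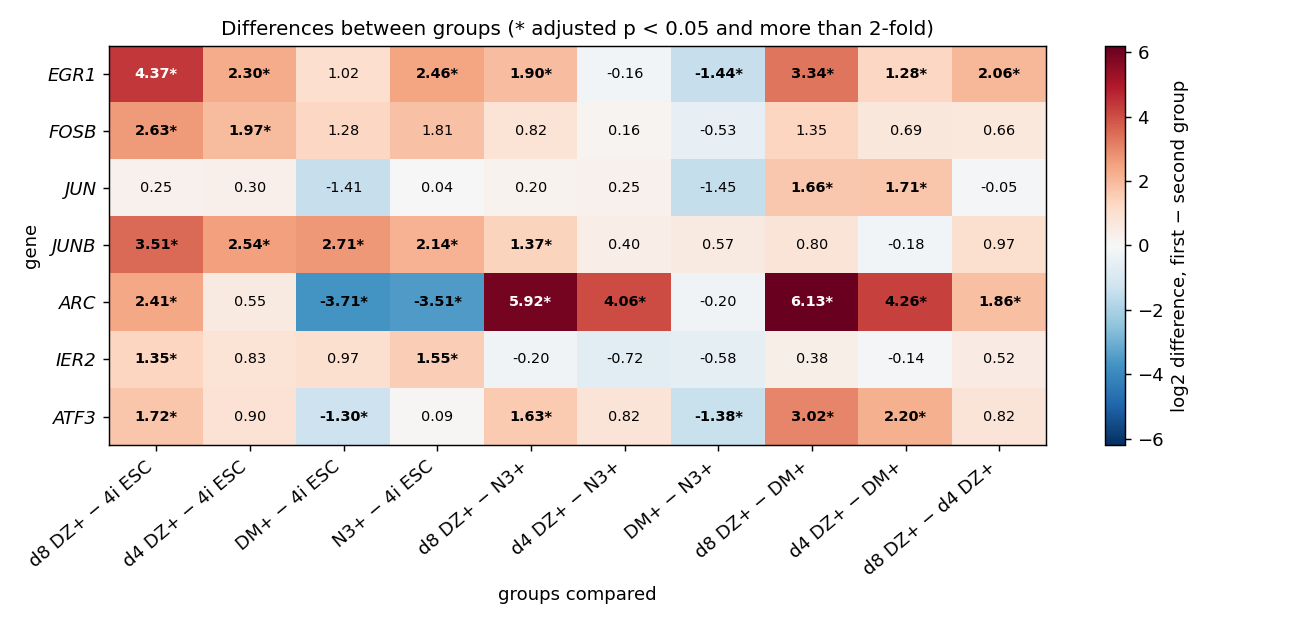
Differences in log2(RPKM + 0.1), first minus second group, for the 7 members (rows) in the 10 comparisons (columns). An asterisk marks an adjusted p under 0.05 with a fold over 2. ARC has the largest differences, 6.13 in d8 DZ+PGCLC against DM+PGCLC and -3.71 in DM+PGCLC against 4i ESC, while JUN is called only against DM+PGCLC.

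The median absolute difference between the 2 libraries of a group was larger for the members than for all genes in d8 DZ+PGCLC, N3+PGCLC and 4i ESC, most of all in 4i ESC. In 4i ESC, replicate 1 exceeded replicate 2 for 6 of 7 members, by 1.76 for FOSB, 1.46 for EGR1, 1.02 for ATF3, 0.93 for ARC, 0.89 for JUN and 0.53 for IER2, and JUNB was lower by -0.33. The median absolute difference was 0.929 for the members and 0.25 over 6850 listed genes with a mean level of at least 0, of which 48.7% were higher in replicate 1. In N3+PGCLC, replicate 2 exceeded replicate 1 for JUN (by 1.14), ARC (1.10), ATF3 (1.02) and FOSB (0.89), and the median absolute difference was 0.885 for the members and 0.346 over all genes. The same N3+PGCLC library held more RNA of endoderm markers, with 415 against 72.4 summed RPKM in replicate 1 over 5 genes, and of mesoderm and amnion markers, with 362 against 105 over 7 genes. In 4i ESC, replicate 2 was higher in summed RPKM for endoderm (11.6 against 2.52), mesoderm and amnion (14.4 against 6.45) and fibroblast markers (881 against 481 over 7 genes). In DM+PGCLC, FOSB (1.65), JUN (1.20) and EGR1 (0.68) were higher in replicate 1. In the same DM+PGCLC library the summed RPKM of fibroblast markers was 317, against 93.4 in replicate 2, and that of endoderm markers 22.5, against 13.2, while mesoderm and amnion markers were at 84.2, against 117. In both DZ+PGCLC groups all 7 members were higher in replicate 1. Their median difference was 0.319 on day 8, above the absolute difference of all genes (0.189), and 0.298 on day 4, where that of all genes was 0.346. Of all genes, 53.8% on day 8 and 48.9% on day 4 were higher in replicate 1. The part of the cells marked by these lists in the members' levels was not tested.

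**Figure D3:**
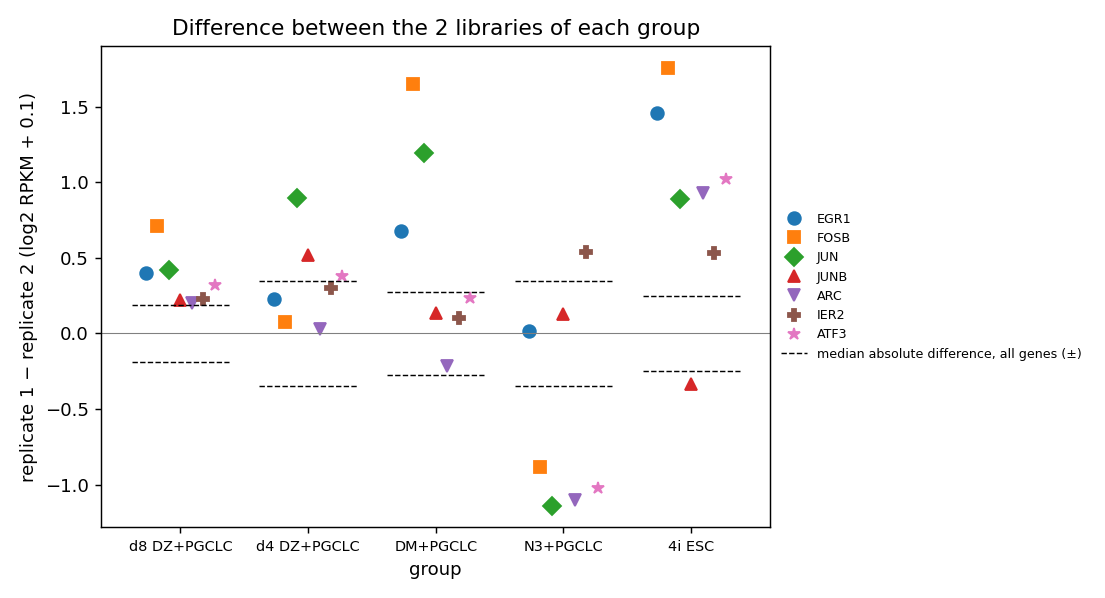
Replicate 1 minus replicate 2 in log2(RPKM + 0.1) for each member, by group. Dashed lines are plus and minus the median absolute difference of 6850 listed genes. All 7 members lie outside the dashed band in d8 DZ+PGCLC (0.201 to 0.712) and in 4i ESC (up to 1.76 for FOSB), while FOSB at 1.65 in DM+PGCLC and JUN at -1.14 in N3+PGCLC are the points farthest from 0 in their groups.

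Described over the 10 libraries, the members fell into profiles that were only in part alike. EGR1 and FOSB had a Pearson r of 0.885, ARC and ATF3 of 0.848, and JUN and ATF3 of 0.824, while JUNB and JUN had -0.053 and ARC and IER2 -0.195. Libraries of a group share their culture and sort, so these values describe 5 groups more than 10 independent points. When the group means were taken out, r was 0.924 for ARC and ATF3, 0.89 for EGR1 and FOSB and 0.868 for FOSB and JUN. JUNB had values between -0.423 (ARC) and 0.191 (JUN). With 2 libraries per group the deviations from a mean are equal and opposite, so these r values describe 5 replicate differences rather than 10 libraries.

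The listed genes most like each member over the 10 libraries were found among 6850 genes. They were RIT1 (r = 0.975), SERTAD1 (0.967) and STK19 (0.961) for EGR1, and TBC1D13 (0.978), BCL7B (0.976) and TOE1 (0.972) for JUNB. For FOSB they were DUSP1 (0.919), which encodes a phosphatase of MAP kinases and is itself an immediate early gene, C3orf62 (0.905) and TCTN2 (0.892). For JUN they were DNAJC18 (0.951), MRPS6 (0.946) and FZD1 (0.928). For ARC they were GOT1 (0.978), BAX (0.973) and GUCA1B (0.972). For IER2, EGR3, a paralogue of EGR1, came first (0.952), then BTBD7 (0.946) and NT5C3B (0.938). For ATF3, KCNK7 (0.946), DUSP2 (0.944), another immediate early phosphatase, and TOMM34 (0.939) came first.

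A wider list of 43 other immediate early genes, of which 33 are listed, moved in both directions. The shares of all listed genes that rose and fell against 4i ESC were 28.5% and 27.4% in d8 DZ+PGCLC, 17.3% and 24.6% in d4 DZ+PGCLC, 23.0% and 21.1% in DM+PGCLC, and 13.8% and 12.3% in N3+PGCLC, with medians of 0.006, -0.10, 0 and 0. In d8 DZ+PGCLC against 4i ESC, 16 of the 33 rose and 4 fell, with a median of 1.18. EGR3 (3.85, adjusted p = 0.000551), DUSP2 (3.36, adjusted p = 0.00297) and MAFF, a small Maf partner of AP-1 proteins (3.33, adjusted p = 0.000353), rose most. MYC (-5.57, adjusted p = 0.00088), SOCS3, a feedback inhibitor of cytokine signalling (-4.02, adjusted p = 0.000397), TRIB1 (-2.45, adjusted p = 0.000423) and BHLHE40 were the genes that fell. In d4 DZ+PGCLC 7 rose and 7 fell with a median of 0.14, a split near that of all genes, and in DM+PGCLC 10 rose and 9 fell with a median of -0.62. In N3+PGCLC 12 rose and 4 fell with a median of -0.03, led by RASD1, a glucocorticoid-inducible Ras-like protein (4.09), KLF4 (3.93) and EGR3 (3.21). From day 4 to day 8 of DZ+PGCLC, 10 of the 33 rose and none fell, against 15.4% and 8.30% of all listed genes, among them NPAS4 (3.23), EGR4 (2.83) and HBEGF, an EGF receptor ligand (2.61). NPAS4 and EGR4 were near the floor on day 4, at no more than 0.0563 and 0.0852 RPKM. On day 8 NPAS4 was at 0.543 and 2.05 RPKM and EGR4 at 1.17 and 0.632. Relative depth was 1.135 and 1.118 on day 8 and 0.856 and 0.665 on day 4.

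**Figure D4:**
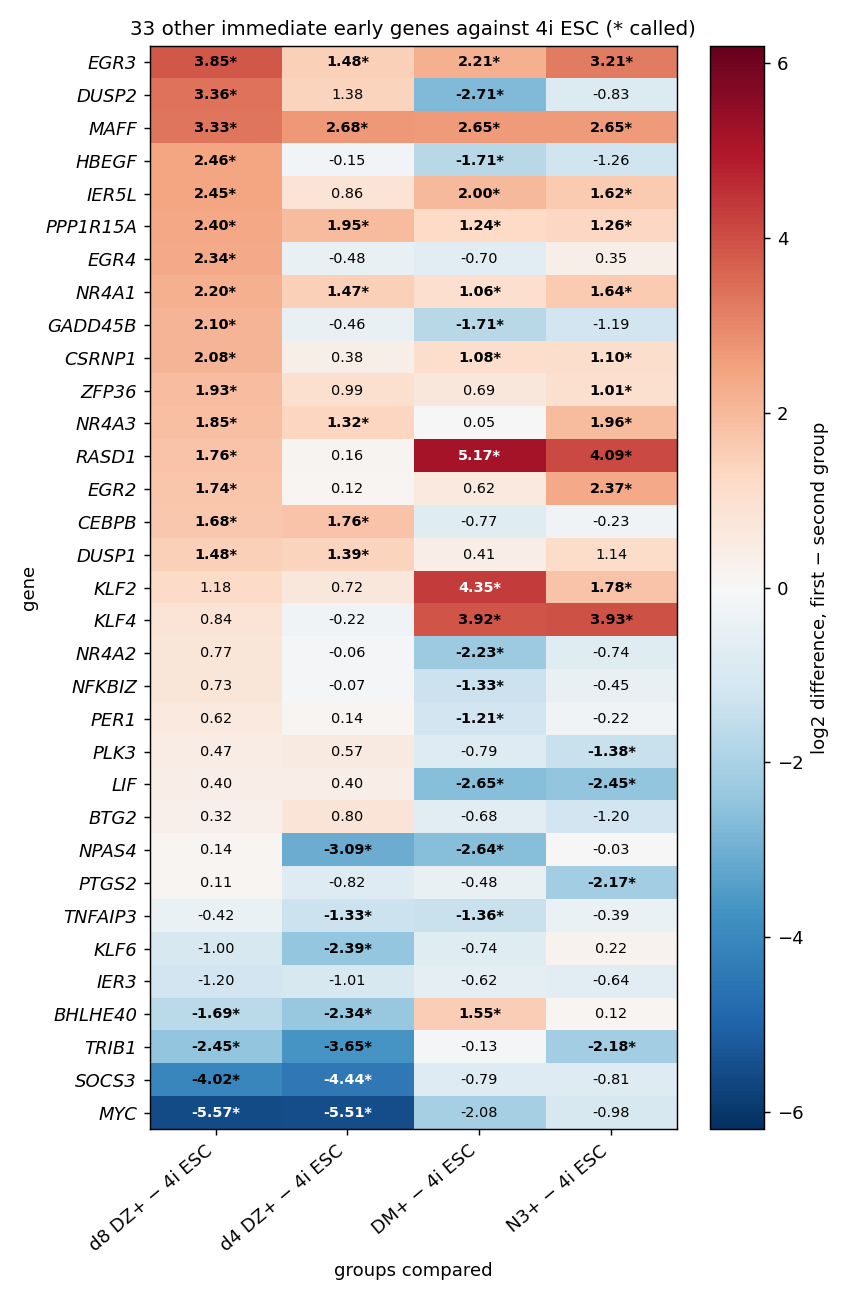
Differences from 4i ESC in log2(RPKM + 0.1) for 33 other immediate early genes (rows, ordered by d8 DZ+PGCLC) in the 4 PGCLC groups (columns). An asterisk marks a called gene. EGR3, MAFF, PPP1R15A and NR4A1 are called higher in every column, and MYC and SOCS3 are called lower in both DZ+PGCLC columns only.

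Paralogues of the members did not all follow them. EGR3 was called higher than in 4i ESC in all 4 PGCLC groups, at 3.85 in d8 DZ+PGCLC, 1.48 in d4 DZ+PGCLC, 2.21 in DM+PGCLC and 3.21 in N3+PGCLC. EGR4 was called in d8 DZ+PGCLC (2.34, adjusted p = 0.00673) and in none of the other 3 groups, and EGR2 rose in d8 DZ+PGCLC (1.74) and N3+PGCLC (2.37). EGR4 was low throughout, at 1.17 and 0.632 RPKM in d8 DZ+PGCLC and 0.17 and 0.0342 in 4i ESC. FOSL1 and FOSL2, the Fos-related AP-1 subunits, had unlike profiles. FOSL1 was at 5.70 and 5.60 in d8 DZ+PGCLC, 4.41 and 4.34 in d4 DZ+PGCLC, 2.35 and 2.62 in DM+PGCLC, 1.56 and 0.04 in N3+PGCLC, and 3.08 and 2.34 in 4i ESC. FOSL2 was at 2.92 and 2.58 in d8 DZ+PGCLC, 0.84 and 1.12 in d4 DZ+PGCLC, 5.65 and 6.13 in DM+PGCLC, 3.39 and 5.27 in N3+PGCLC, and 2.73 and 2.63 in 4i ESC. In d8 DZ+PGCLC against DM+PGCLC, FOSL1 rose by 3.17 (adjusted p = 0.00077) and FOSL2 fell (-3.14, adjusted p = 0.00154). Of 9 listed other AP-1 and Maf genes, 4 rose and none fell in d8 DZ+PGCLC against 4i ESC, with a median of 0.77, against 28.5% and 27.4% of all listed genes. IER5L, a relative of IER2, rose in d8 DZ+PGCLC (2.45), DM+PGCLC (2.00) and N3+PGCLC (1.62) over 4i ESC, and IER3 was called in no comparison (-1.20 in d8 DZ+PGCLC, adjusted p = 0.0603).

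Upstream genes and ERK feedback genes had calls in both directions. Of 14 listed kinases, cofactors and ternary complex factors, 6 rose and 3 fell in d8 DZ+PGCLC against 4i ESC (28.5% and 27.4% of all listed genes), with ELK1, a partner of serum response factor, among the higher genes and MAPK14, which encodes p38α, among the lower. Of 13 listed ERK feedback genes, 2 rose and 5 fell in d8 DZ+PGCLC, 1 rose and 6 fell in d4 DZ+PGCLC, 4 rose and 6 fell in DM+PGCLC and 4 rose and 2 fell in N3+PGCLC, each against 4i ESC. Among all listed genes, 28.5% rose and 27.4% fell in d8 DZ+PGCLC, 17.3% and 24.6% in d4 DZ+PGCLC, 23.0% and 21.1% in DM+PGCLC and 13.8% and 12.3% in N3+PGCLC. The list's medians were -0.21 in d8 DZ+PGCLC, -0.98 in d4 DZ+PGCLC, -1.02 in DM+PGCLC and 0.68 in N3+PGCLC. SPRY4, an inhibitor of receptor tyrosine kinase signalling, was higher than in 4i ESC in DM+PGCLC (3.61, adjusted p = 0.000265) and N3+PGCLC (2.94, adjusted p = 0.00161) and lower in d4 DZ+PGCLC (-1.90, adjusted p = 0.00415). DUSP6, an ERK phosphatase, rose in N3+PGCLC (3.00, adjusted p = 0.00411) and was not called in the other 3 groups.

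Against 4i ESC, heat shock genes rose in both DZ+PGCLC groups, and integrated stress genes moved in both directions. Among all listed genes, 28.5% rose and 27.4% fell in d8 DZ+PGCLC against 4i ESC and 17.3% and 24.6% in d4 DZ+PGCLC. Of 8 listed heat shock genes, 7 rose and none fell in each DZ+PGCLC group against 4i ESC, with medians of 3.09 on day 8 and 2.75 on day 4. In DM+PGCLC against 4i ESC 2 rose and 1 fell (HSPD1), against 23.0% and 21.1% of all listed genes. In N3+PGCLC 2 rose and none fell, against 13.8% and 12.3%. HSPA6, a strictly inducible chaperone, was at 6.00 and 6.05 in d8 DZ+PGCLC, 3.01 and 3.86 in d4 DZ+PGCLC, -3.32 and -2.93 in DM+PGCLC, -2.93 and -3.32 in N3+PGCLC, and -2.71 and -3.32 in 4i ESC, where -3.32 is an RPKM of 0. The list's summed RPKM was 1650 and 1790 in d8 DZ+PGCLC, 1320 and 1090 in d4 DZ+PGCLC, 408 and 365 in DM+PGCLC, 420 and 428 in N3+PGCLC, and 589 and 451 in 4i ESC. Of 10 listed integrated stress response genes, a pathway in which ATF3 is itself a target, 5 rose in each DZ+PGCLC group against 4i ESC, and 3 fell on day 8 (DDIT4, VLDLR and PSAT1) and 1 on day 4 (DDIT4). The list's median was 0.80 on day 8 and 0.98 on day 4. PPP1R15A and CEBPB, among the 5 in each group, are also on the list of other immediate early genes. MAFF of the AP-1 and Maf list, and DUSP1 and PER1 of the glucocorticoid response list below, are on it too. The counts of these lists are thus not fully separate. TRIB3, a pseudokinase of that pathway, rose by 4.40 (adjusted p = 3.28e-05) and 3.13 (adjusted p = 0.000132). DDIT3, which encodes CHOP, rose by 2.05 (adjusted p = 0.00159) and 1.42 (adjusted p = 0.0113). Against DM+PGCLC, 9 of these 10 genes rose and 1 fell on day 8 (28.1% and 27.5% of all listed genes). On day 4, 6 rose and 1 fell (18.8% and 26.1%). Against N3+PGCLC, 7 rose and 1 fell on day 8 (25.5% and 25.6%), and 8 rose and 1 fell on day 4 (15.5% and 24.1%). Of 11 listed glucocorticoid response genes, 1 rose and 2 fell in d8 DZ+PGCLC and 2 rose and 5 fell in d4 DZ+PGCLC, the groups given dexamethasone, against 4i ESC. Against DM+PGCLC, for which none is named, 6 rose and 5 fell in d8 DZ+PGCLC (28.1% and 27.5% of all listed genes) and 4 rose and 4 fell in d4 DZ+PGCLC (18.8% and 26.1%). Against N3+PGCLC, for which none is named either, 2 rose and 5 fell in d8 DZ+PGCLC (25.5% and 25.6%). In d4 DZ+PGCLC 1 rose and 4 fell against N3+PGCLC (15.5% and 24.1%). FKBP5, a standard marker of that response, was lower than in 4i ESC in d8 DZ+PGCLC (-1.14, adjusted p = 0.0143) and d4 DZ+PGCLC (-1.26, adjusted p = 0.0123). It was higher than in DM+PGCLC by 2.28 (adjusted p = 0.000573) and 2.16 (adjusted p = 0.000904). Against N3+PGCLC (mean 2.22) FKBP5 was called in neither d8 DZ+PGCLC (2.80) nor d4 DZ+PGCLC (2.68). The part of heat shock, stress or steroid in the members' levels was not tested.

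**Figure D5:**
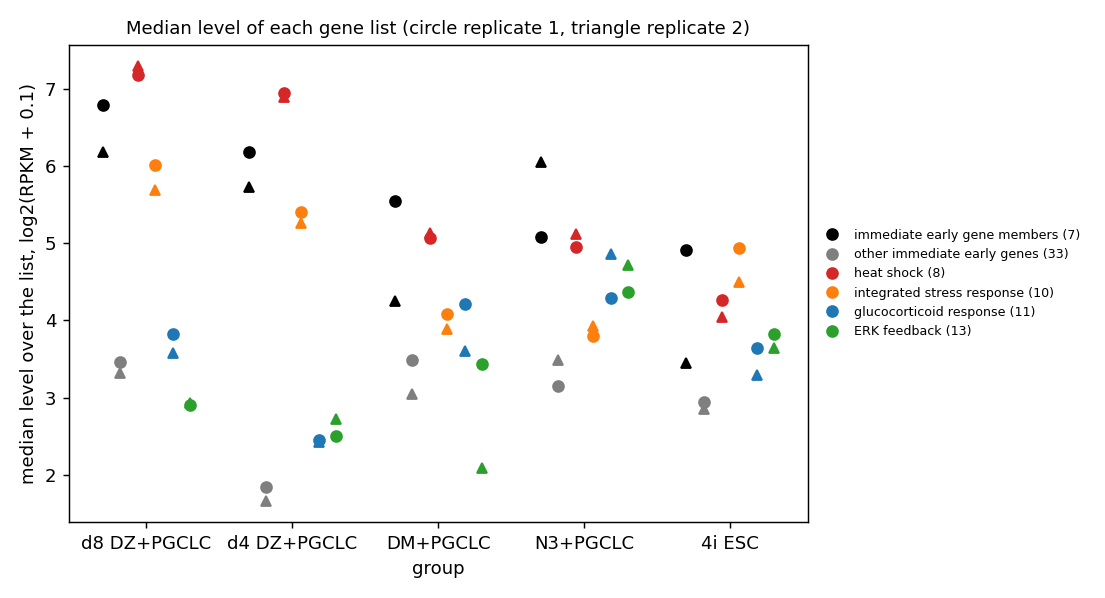
Median level over each gene list on the y axis as log2(RPKM + 0.1), by group, with circles for replicate 1 and triangles for replicate 2 and the number of genes in brackets. The heat shock and integrated stress response lists are highest in d8 DZ+PGCLC, and the ERK feedback list is highest in N3+PGCLC. The 7 members are at 6.79 and 6.19 in d8 DZ+PGCLC, and d4 DZ+PGCLC replicate 1 is also at 6.19.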

How the data were processed

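The series holds 13 samples, of which 10 RNA libraries were used and 3 CUT&RUN samples were not analysed here. By the study's own methods and the processing notes of the submitters, rRNA-depleted strand-specific libraries were trimmed with Trim Galore and mapped with STAR to GRCh38.p13, with unique reads kept. The authors computed RPKM with Cufflinks and deposited it as log2(RPKM + 0.1) per library, in 3 tables of protein-coding genes that had passed their edgeR comparison of d8 DZ+PGCLC, DM+PGCLC or N3+PGCLC with 4i ESC. The tables were joined to 9706 genes. The fold change and FDR columns of that comparison and 8 tables of gene set enrichment were not used. Read totals are unknown, so the precision rests on the spread between 2 libraries per group.

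Groups were taken from the sample labels. All 10 libraries were fitted with limma 3.58.1 in R 4.3.3 with an intensity trend (5 residual degrees of freedom). The 10 pairwise differences were tested with Benjamini-Hochberg adjustment over 9706 genes and called at an adjusted p under 0.05 and a fold over 2. The fit was tested on simulated data. Exact permutation of 2 against 2 libraries cannot reach 0.05 and was not used. Alternatives were log2(RPKM + 1), a mean level of at least 0, no trend, median centring, only the 4 libraries compared, a replicate block and each library left out. Named genes were all members, the 3 most like each, paralogues, and up to 3 called genes per list with the largest difference in a comparison, beside those needed to spell out a count. The members and lists were chosen with earlier results of these data known.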

Additional observations from a re-analysis of the deposited data

How the results depend on the processing

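Of the 70 differences of single members (7 genes, 10 comparisons), 33 were called, and 16 of these stayed called under every alternative tried. None of the 33 changed sign. Adding 1 to RPKM before the logarithm changed no call of a member. Of the 37 not called, 15 changed sign under at least 1 alternative. With median centring, 9 further differences were called and 4 changed sign, namely EGR1 (0.18) in d4 DZ+PGCLC and IER2 (0.041) in d8 DZ+PGCLC against N3+PGCLC, and JUNB (0.099) and IER2 (0.14) in d4 DZ+PGCLC against DM+PGCLC. The number of members called was then 6 in place of 3 in DM+PGCLC against 4i ESC, 5 in place of 3 in d4 DZ+PGCLC against 4i ESC, and 2 in place of 1 in d4 DZ+PGCLC against N3+PGCLC. With a mean level of at least 0 it was 5 in DM+PGCLC against 4i ESC. With only the 4 libraries compared, which leaves 2 residual degrees of freedom, it was 1 in place of 4 in N3+PGCLC and 1 in place of 3 in d4 DZ+PGCLC, both against 4i ESC, and 0 in place of 2 in DM+PGCLC against N3+PGCLC. Without the intensity trend it was also 0 in that last comparison. 

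The replicate differences of 2 groups correlated between -0.22 and 0.19. Such values cannot tell whether the replicate numbers mark matched batches. With a replicate block the count in DM+PGCLC against N3+PGCLC was 1 in place of 2, as ATF3 had an adjusted p of 0.0508, EGR1 in DM+PGCLC against 4i ESC was called (adjusted p = 0.0371), and no other call of a member changed.

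Leaving out 1 library at a time gave, against 4i ESC, 4 to 6 members called in d8 DZ+PGCLC (6 with all libraries), 2 to 5 in d4 DZ+PGCLC (3), 3 to 4 in DM+PGCLC (3) and 4 to 5 in N3+PGCLC (4). It gave 2 to 4 in d8 DZ+PGCLC (4), 1 to 2 in d4 DZ+PGCLC (1) and 0 to 1 in DM+PGCLC (2) against N3+PGCLC. It gave 3 to 5 in d8 DZ+PGCLC (4) and 2 to 3 in d4 DZ+PGCLC (4) against DM+PGCLC, and 0 to 2 in d8 DZ+PGCLC against d4 DZ+PGCLC (2). Differences that crossed 0 were all uncalled. JUN ranged from -0.20 to 0.69 in d8 DZ+PGCLC, from -0.15 to 0.74 in d4 DZ+PGCLC and from -0.53 to 0.61 in N3+PGCLC against 4i ESC, from -0.36 to 0.77 in d8 DZ+PGCLC and from -0.32 to 0.82 in d4 DZ+PGCLC against N3+PGCLC, and from -0.50 to 0.40 between the DZ+PGCLC groups. ATF3 ranged from -0.43 to 0.60 in N3+PGCLC against 4i ESC. FOSB ranged from -1.35 to 0.30 and ARC from -0.75 to 0.35 in DM+PGCLC against N3+PGCLC. FOSB ranged from -0.28 to 0.60 in d4 DZ+PGCLC and IER2 from -0.47 to 0.072 in d8 DZ+PGCLC against N3+PGCLC. In d4 DZ+PGCLC against DM+PGCLC, FOSB ranged from -0.14 to 1.51, JUNB from -0.43 to 0.082 and IER2 from -0.29 to 0.01.

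Over all listed genes, calls changed by more than 1.5 times in a few cases. With only the 4 libraries compared they were 902 in place of 2531 in N3+PGCLC against 4i ESC, 685 in place of 2517 in DM+PGCLC and 2514 in place of 3846 in d4 DZ+PGCLC against N3+PGCLC. Among genes with a mean level of at least 0 the split in d8 DZ+PGCLC was 1699 higher and 2302 lower in place of 2767 and 2658 against 4i ESC, 1440 and 2146 in place of 2479 and 2481 against N3+PGCLC, and 1599 and 2305 in place of 2732 and 2672 against DM+PGCLC. With log2(RPKM + 1) the calls were 1491 in place of 2299 in d8 DZ+PGCLC against d4 DZ+PGCLC. Leaving out 1 library took them as low as 1258 in that comparison (d8 DZ+PGCLC replicate 2), 1607 in N3+PGCLC against 4i ESC (4i ESC replicate 1) and 1634 in DM+PGCLC against N3+PGCLC (DM+PGCLC replicate 2). The cause of these changes was not tested. With 2 libraries per group, the standard error of a difference ran from 0.202 for JUNB to 0.698 for FOSB on the log2 scale.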
